A study of Mus musculus with 25 samples.

Results

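The genotype difference was measured wholly in treated mice: cortical RNA of 5 5xFAD mice given a high dose of P (AD_HighP) was set against that of 5 wild-type mice also labelled high P (WT_HighP). These 10 libraries are part of a series of 25, and genes were kept where at least 5 of the 10 libraries held at least 0.5 FPKM, which left 14995 of the 54532 genes listed. The deposited values are FPKM, fragments scaled to gene length and library depth. P is a derivative of a natural product that the labels name only by this letter. The sources used here do not give its dose, route or duration, or the age of the mice. Since both groups received P, the comparison shows how the genotypes differed under the compound and not what the compound did. The vehicle groups, 5 5xFAD mice (AD_Veh) and 5 wild-type mice (WT_Veh), shared no library with it and served for values side by side. The 5xFAD mouse carries transgenes, among them mutant human amyloid precursor protein, under mouse Thy1 sequences, which drive expression in neurons. Nothing in the labels pairs mice across groups or names a litter or batch, and Xist and Y-linked genes marked replicates 1 to 3 of both groups as male and replicates 4 and 5 as female.

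In this model amyloid accumulates in plaques in the cortex. Microglia, the resident phagocytes of the brain, gather at plaques and switch on a programme of lipid-handling, lysosomal and antigen-presenting genes that depends on the receptor Trem2 and its signalling partner Tyrobp, while neighbouring astrocytes become reactive and build up the filament protein Gfap. Interferon-stimulated genes form a further programme, and its transcription factors bind a short repeated element in the promoters of their targets.

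Thy1 (ENSMUSG00000032011, chromosome 9 from 44043384 to 44048579), which encodes a neuronal surface protein and whose sequences drive the transgenes, checked the genotype labels. Its level was 513, 493, 437, 429.5 and 436 FPKM in AD_HighP replicates 1 to 5 and 182, 179.5, 179, 196 and 190.4 FPKM in WT_HighP replicates 1 to 5 (log2 fold change 1.31, SE 0.07, adjusted p = 1.78e-06). Every 5xFAD library was above every wild-type one, so the labels and the gene matched in all 10. App, the endogenous precursor gene, gave 146 ± 9.65 against 148 ± 4.82 FPKM and did not pass the test (adjusted p = 0.880). Here and below, levels are means ± SD over n = 5 mice, and fold changes are differences of log2(FPKM + 0.5), AD_HighP minus WT_HighP, with their standard error (SE). Calls required an adjusted p under 0.05 in limma's moderated two-sided test, with Benjamini-Hochberg adjustment over all 14995 genes.

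The libraries held 15518358 to 17698222 reads assigned to genes. Markers of cortical tissue were present in all 10: the glutamate transporter gene Slc17a7 ranged from 228 to 309.7 FPKM and the deep-layer factor Tbr1 from 26.2 to 51.2 FPKM. Some libraries also held more RNA of tissue next to cortex. Summed over 16 striatal markers, FPKM was 1150.4, 852, 807, 209 and 280.3 in WT_HighP 1 to 5 and 146, 225, 592, 118 and 241 in AD_HighP 1 to 5. The wild-type libraries were thus mostly higher, with overlap (means 659.8 and 264, two-sided exact permutation p = 0.0714, adjusted over 18 library measures 0.257). Ttr, a product of choroid plexus, exceeded 100 FPKM in WT_HighP 1 and 2 and AD_HighP 1 and 4 and was under 9 FPKM in the other 6. The 25 blood leukocyte genes summed to 2.39 to 8.31 FPKM per library, and 2 of them passed the filter, both lower in AD_HighP and neither called. Among defining markers Ly6g was at 0 in all 10 libraries and Cd3e at most 0.0857 FPKM. Depth (exact permutation p = 0.175) and the share of mitochondrial reads (exact p = 0.357) did not separate the genotypes, where the smallest p that 5 against 5 mice allow is 0.00794.

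**Figure D1:**
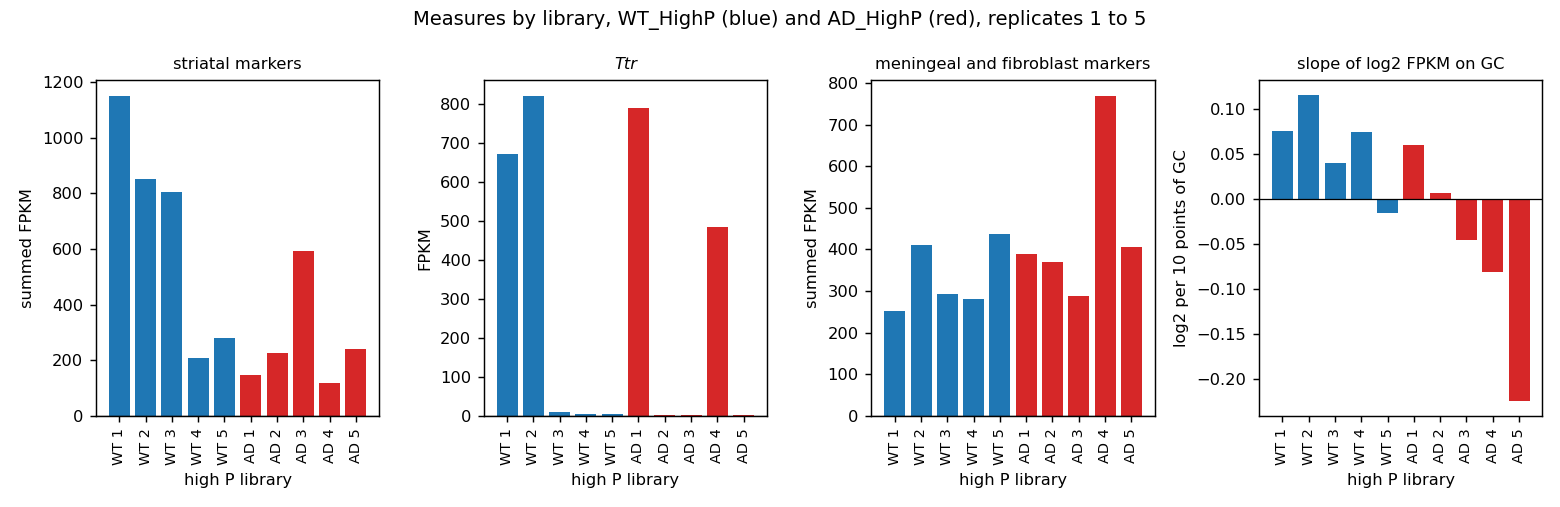
Bars show, for each of the 10 libraries (WT_HighP replicates 1 to 5 in blue, AD_HighP replicates 1 to 5 in red), the summed FPKM of striatal markers, the FPKM of Ttr, the summed FPKM of meningeal and fibroblast markers, and the slope of log2 FPKM on gene GC content (log2 per 10 points of GC). Striatal sums are highest in WT_HighP 1 to 3 (807 to 1150.4), Ttr is high in 4 libraries, AD_HighP 4 has the highest meningeal sum (769) and AD_HighP 5 the lowest GC slope (-0.22).

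In total 516 genes were called, 333 higher (2.22% of those tested) and 183 lower (1.22%) in AD_HighP. The median log2 difference over all genes tested was 0.00 (49.0% positive). Among called genes, rises were larger than falls: the median was 0.76 among the genes called higher and -0.42 among those called lower, and 98 of the former against 5 of the latter differed at least 2-fold. The 2 sets also lay at unlike levels, with median FPKM of 2.98 for genes called higher and 14.5 for those called lower. The part of level in this gap was not tested. For 313 of the 333 and 164 of the 183 no value of one genotype fell within the range of the other, against 6.09% of all genes tested. The calls were made on these same values, so this separation follows largely from the call and is no separate support. Of the genes called higher, 145 belonged to a list of microglial, astrocytic, immune, metabolic or cell type genes used here, as did 15 of those called lower.

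**Figure D2:**
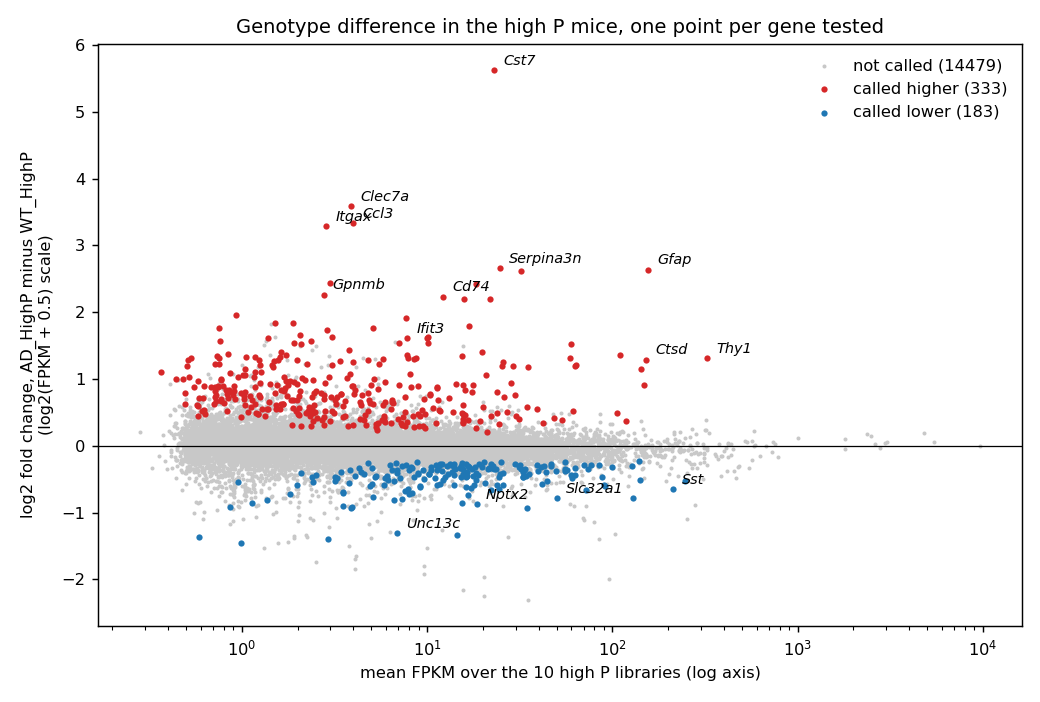
Each point is one of the 14995 genes tested, with its mean FPKM over the 10 high P libraries (log axis) against its log2 fold change, AD_HighP minus WT_HighP. The 333 genes called higher (red) reach 5.62 at Cst7, and the 183 called lower (blue) lie mostly between 0 and -1.

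The largest rises were among genes of plaque-associated microglia. Of 36 genes on that list 31 were tested, 22 were called higher and none lower, with a median log2 difference of 1.18 against 0.00 over all genes. Cst7 (ENSMUSG00000068129, chromosome 2 from 150570415 to 150578944), an inhibitor of lysosomal cysteine proteases, was at 33.0, 57.0, 34.2, 64.6 and 39.4 FPKM in AD_HighP and 0.631, 0.297, 0.490, 0.417 and 0.241 FPKM in WT_HighP (log2 fold change 5.62, SE 0.19, adjusted p = 7.56e-08). It was close to absent in every wild-type library and differed more than any other gene. Clec7a (ENSMUSG00000079293, chromosome 6 from 129461591 to 129472779), the beta-glucan receptor dectin-1, was at 4.06, 9.72, 6.51, 8.96 and 8.93 FPKM in AD_HighP and 0.0429, 0.245, 0.0687, 0.201 and 0.226 FPKM in WT_HighP (log2 fold change 3.59, SE 0.21, adjusted p = 5.21e-06). The integrin subunit Itgax (CD11c) was at 3.33, 6.11, 5.29, 8.09 and 5.18 FPKM in AD_HighP and 0.130, 0.0977, 0.0378, 0.0857 and 0.173 in WT_HighP (log2 fold change 3.29, SE 0.18, adjusted p = 3.34e-06). For both genes the groups lay far apart, and AD_HighP 1 was the lowest of the 5xFAD libraries. With wild-type levels near 0 these folds depend on the pseudocount: with 0.1, with 1 and by voom on the recovered reads they were 4.94, 2.85 and 5.71 for Clec7a and 4.78, 2.54 and 5.75 for Itgax.

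The receptor complex behind this programme rose as well. Tyrobp, the adaptor through which Trem2 signals, was at 36.2, 37.0, 35.7, 39.3 and 31.8 FPKM in AD_HighP and 7.63, 8.71, 7.70, 5.91 and 7.49 FPKM in WT_HighP (log2 fold change 2.20, SE 0.09, adjusted p = 3.57e-07). The 5xFAD mice varied little in this gene, with an SD of 2.72 FPKM on a mean of 36.0. Trem2 itself, named for its role after its values were seen, was at 9.59, 15.4, 12.2, 14.5 and 10.2 FPKM in AD_HighP and 2.78, 3.82, 3.35, 2.28 and 2.29 in WT_HighP (log2 fold change 1.92, SE 0.16, adjusted p = 5.56e-05). The bacterial cell wall hydrolase Lyz2 rose (31.1 ± 5.26 against 5.42 ± 1.30 FPKM, log2 fold change 2.43, SE 0.16, adjusted p = 9.15e-06), as did the glycoprotein Gpnmb (5.08 ± 4.33 against 0.449 ± 0.120 FPKM, log2 fold change 2.26, SE 0.39, adjusted p = 0.00881). Gpnmb was the most uneven of these, from 1.56 FPKM in AD_HighP 1 to 12.4 in AD_HighP 4, yet above the wild-type range in every 5xFAD mouse. It was not called with a striatal marker score as a covariate (adjusted p = 0.0951), without the 4 libraries highest in striatal markers (0.218), or in either sex alone. Lpl, which hydrolyses lipoprotein triglycerides, rose less (5.29 ± 0.545 against 2.71 ± 0.863 FPKM, log2 fold change 0.89, SE 0.17, adjusted p = 0.0174) and was no longer called without AD_HighP 4 (adjusted p = 0.0512). Apoe, the main apolipoprotein of the brain and a listed member, was named after its values were seen, because it stood apart: 617, 771, 537, 593 and 394 FPKM in AD_HighP and 619, 763, 547, 507 and 460.1 FPKM in WT_HighP (log2 fold change -0.00, SE 0.18, adjusted p = 0.996). Its groups overlapped almost fully. The vehicle genotypes gave 548 against 269 FPKM for Apoe (log2 fold change 1.06, adjusted p = 0.0484), and the test of the difference between these differences gave -1.06 (SE 0.32, adjusted p = 0.384). The list's count held at 21 to 24 when single libraries were left out, and was 19 without the 4 libraries high in Ttr and 15 without the 4 highest in striatal markers. Those last 4, here and below, were WT_HighP 1, 2 and 3 and AD_HighP 3, so that setting kept no wild-type male.

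**Figure D3:**
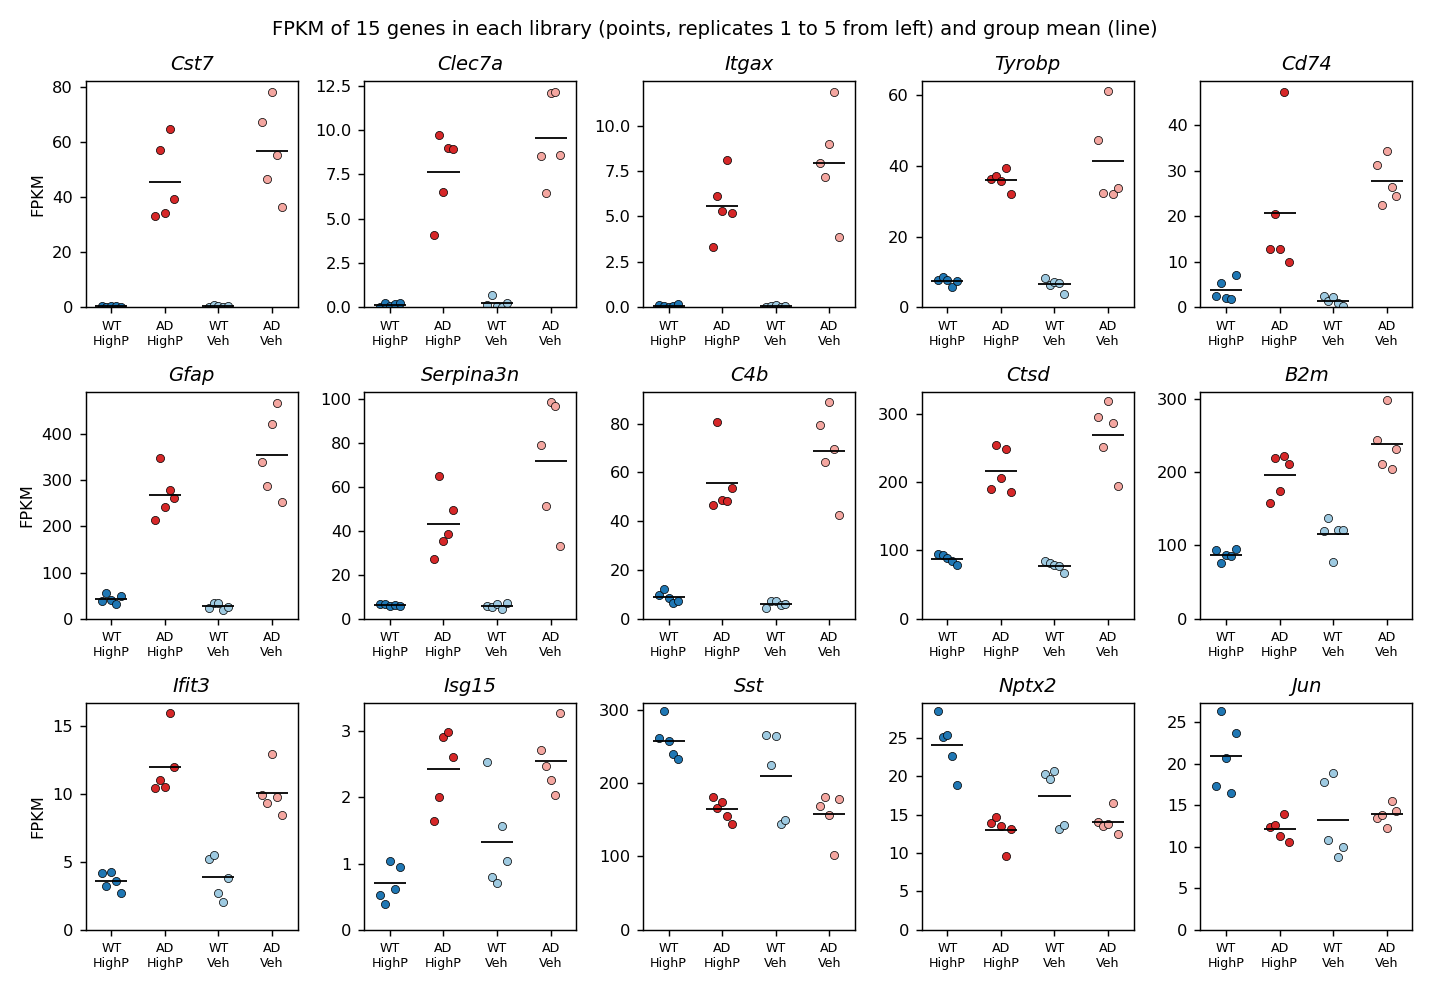
FPKM of 15 genes in each mouse (points, replicates 1 to 5 from left to right) with group means (lines), for WT_HighP, AD_HighP, WT_Veh and AD_Veh. Genotypes under high P do not overlap in any of the 15 panels. Sst, Nptx2 and Jun are lower in AD_HighP than in WT_HighP.

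Genes that mark microglia irrespective of plaques rose in part. Of 18 genes of homeostatic microglia 9 were called higher and none lower (median 0.56), or 4 without the libraries highest in striatal markers. The summed FPKM of that list was 328, 403, 338, 372 and 347 in AD_HighP and 254, 273, 242, 230.5 and 233 in WT_HighP, with no overlap (exact permutation p = 0.00794, adjusted 0.0476). In bulk tissue, more cells of a type cannot be told apart from more RNA per cell. Fcrls, a microglial Fc receptor-like protein, had the smallest adjusted p of the list (22.3 ± 2.06 against 8.55 ± 1.16 FPKM, log2 fold change 1.34, SE 0.09, adjusted p = 1.76e-05). The fractalkine receptor Cx3cr1 (23.1 ± 2.62 against 12.1 ± 1.77 FPKM, log2 fold change 0.91, SE 0.11, adjusted p = 0.000584) and the receptor Gpr34 (12.3 ± 3.32 against 4.61 ± 0.777 FPKM, log2 fold change 1.30, SE 0.17, adjusted p = 0.00113) rose too. Tmem119 (10.05 ± 1.45 against 9.86 ± 1.83 FPKM, log2 fold change 0.03, adjusted p = 0.918), a surface marker of the same cells chosen here after its values were seen, did not pass the test.

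Of 19 tested microglial transcription factors and signalling genes 8 were called higher and none lower (median 0.52), or 5 without AD_HighP 4. Without the libraries high in Ttr 3 were called, without the highest in striatal markers 2, and with the striatal covariate 4. The myeloid factor Irf8 rose to 2.43 ± 0.351 against 0.933 ± 0.225 FPKM (log2 fold change 1.04, SE 0.13, adjusted p = 0.00103). The phosphatases Ptpn6 (log2 fold change 1.23, SE 0.19, adjusted p = 0.00411) and Ptprc (log2 fold change 0.79, SE 0.13, adjusted p = 0.00524) and the guanine nucleotide exchange factor Dock2 (log2 fold change 0.73, SE 0.13, adjusted p = 0.00859) were the other called members with the smallest p. Dock2 and Ptprc were low throughout, at 1.02 and 0.759 FPKM in AD_HighP. Cebpa, a factor of myeloid cells that is also made by other glia, rose by 0.48 (11.4 ± 1.85 against 7.99 ± 0.566 FPKM, SE 0.10, adjusted p = 0.0281). Its call was lost without any one of AD_HighP 3 or 4 or WT_HighP 1, 2 or 3 (adjusted p from 0.0557 to 0.0762).

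Receptors by which phagocytes sense antibody were nearly all higher. Of 5 tested Fc receptor genes 4 were called higher and none lower (median 1.08). Fcer1g, the shared signalling chain of these receptors, was at 11.7, 20.2, 14.5, 15.9 and 15.2 FPKM in AD_HighP and 5.63, 5.97, 3.04, 4.10 and 4.70 in WT_HighP (log2 fold change 1.63, SE 0.17, adjusted p = 0.000325). The inhibitory receptor Fcgr2b (2.58 ± 0.330 against 0.661 ± 0.0829 FPKM, log2 fold change 1.41, SE 0.10, adjusted p = 1.98e-05) and the activating receptors Fcgr3 (11.2 ± 0.745 against 5.05 ± 0.667 FPKM, log2 fold change 1.08, SE 0.09, adjusted p = 5.13e-05) and Fcgr1 (2.58 ± 0.358 against 1.06 ± 0.0697 FPKM, log2 fold change 0.98, SE 0.09, adjusted p = 0.000155) completed the set. All 4 kept their call when any single library was left out. Among 16 innate sensors 8 were called higher (median 0.63). They included the lipopolysaccharide co-receptor Cd14 (8.20 ± 1.95 against 2.04 ± 0.490 FPKM, log2 fold change 1.77, SE 0.16, adjusted p = 0.000126), the Toll-like receptor Tlr2 (2.24 ± 0.531 against 0.698 ± 0.118 FPKM, log2 fold change 1.18, SE 0.13, adjusted p = 0.000565), Cd180 (log2 fold change 1.65, SE 0.18, adjusted p = 0.000412) and its partner Ly86 (log2 fold change 1.43, SE 0.11, adjusted p = 3.64e-05). Of the 7 phagocyte oxidase genes, whose products make superoxide, 5 were called higher, led by the membrane subunit Cyba (11.4 ± 1.42 against 4.30 ± 0.845 FPKM, log2 fold change 1.32, SE 0.13, adjusted p = 0.000151). Its partner Cybb (log2 fold change 0.99, SE 0.16, adjusted p = 0.00514) and the cytosolic subunit Ncf1 (log2 fold change 0.98, SE 0.13, adjusted p = 0.00156) followed. The oxidase count fell to 3 without AD_HighP 2, AD_HighP 5, WT_HighP 1 or WT_HighP 3, and was 2, 1 and 4 in the settings for Ttr, striatal libraries and striatal covariate. The sensor count was 4, 5 and 6 in these.

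Of 17 chemokine and cytokine genes 7 were called higher and none lower (median 0.61). Ccl3, a chemokine that draws monocytes, was at 6.66, 8.52, 10.1, 6.88 and 5.91 FPKM in AD_HighP and 0.369, 0, 0.395, 0.230 and 0.622 FPKM in WT_HighP (log2 fold change 3.33, SE 0.21, adjusted p = 7.47e-06). Its neighbour Ccl4 was at 1.32, 1.5, 2.35, 2.11 and 1.58 FPKM in AD_HighP and 0, 0.267, 0, 0 and 0.180 FPKM in WT_HighP (log2 fold change 1.95, SE 0.18, adjusted p = 0.000114), with no read in 3 wild-type libraries. The fold of Ccl4 rests on the pseudocount and was 3.52 with 0.1, 1.34 with 1 and 4.30 by voom, and that of Ccl3 was 4.42, 2.70 and 4.85. The chemokine Ccl6 rose (5.36 ± 0.967 against 0.632 ± 0.405 FPKM, log2 fold change 2.43, SE 0.23, adjusted p = 0.000126), and so did the receptor of granulocyte colony-stimulating factor, Csf3r (5.02 ± 0.520 against 1.78 ± 0.120 FPKM, log2 fold change 1.27, SE 0.08, adjusted p = 8.82e-06). Neutrophils and monocytes also use these genes. Their markers Ly6g (0 in all 10 libraries) and Ccr2 (0.0172 to 0.146 FPKM) were at or near 0, and the leukocyte sum was 4.37 ± 1.38 in AD_HighP against 5.401 ± 2.78 in WT_HighP (exact permutation p = 0.476). The part of blood cells in these rises was not tested. Without the libraries high in Ttr, without the highest in striatal markers and with the striatal covariate, 4 of the 17 were called in each case.

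Of 16 tested complement genes 8 were called higher and none lower (median 0.72), from the initiating complex to receptors. The count was 6 without the libraries high in Ttr, 5 without the highest in striatal markers and 6 with the striatal covariate. C1qc, a chain of the initiating C1q complex, was at 34.4, 52.6, 41.1, 45.4 and 29.9 FPKM in AD_HighP and 18.2, 20.2, 15.7, 15.3 and 16.9 FPKM in WT_HighP (log2 fold change 1.19, SE 0.14, adjusted p = 0.00064). The groups did not overlap, although the 5xFAD mice differed among themselves by more than the gap between the groups. C4b, the next component, was at 46.8, 80.8, 48.9, 48.3 and 53.7 FPKM in AD_HighP and 9.80, 12.3, 8.33, 6.20 and 7.05 FPKM in WT_HighP (log2 fold change 2.61, SE 0.19, adjusted p = 1.98e-05). Reads of C4b can be shared with its near-identical copy C4a, which leaves the level uncertain. The anaphylatoxin receptor C3ar1 (2.72 ± 0.512 against 0.751 ± 0.148 FPKM, log2 fold change 1.36, SE 0.13, adjusted p = 0.000146) and the integrin chain Itgb2 of complement receptor 3 (5.78 ± 0.813 against 2.15 ± 0.453 FPKM, log2 fold change 1.25, SE 0.13, adjusted p = 0.00027) rose as well.

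Of 22 tested reactive astrocyte genes 9 were called higher and none lower (median 0.51). Gfap (ENSMUSG00000020932, chromosome 11 from 102887336 to 102900912) was at 215, 348, 241, 278 and 262 FPKM in AD_HighP and 38.5, 55.3, 41.2, 31.3 and 49.6 FPKM in WT_HighP (log2 fold change 2.63, SE 0.16, adjusted p = 6.53e-06). The lowest 5xFAD library was more than 3-fold above the highest wild-type one. Serpina3n, a secreted inhibitor of serine proteases, was at 27.2, 65.1, 35.5, 38.6 and 49.3 FPKM in AD_HighP and 6.44, 6.59, 5.92, 6.24 and 5.54 FPKM in WT_HighP (log2 fold change 2.65, SE 0.19, adjusted p = 1.76e-05). Wild-type mice were nearly equal in this gene, whereas the 5xFAD mice spread over more than 2-fold. C4b stands on this list too, and the asparaginase gene Aspg rose (2.30 ± 0.550 against 0.668 ± 0.245 FPKM, log2 fold change 1.27, SE 0.18, adjusted p = 0.00247). The count of 9 was 4 without the libraries high in Ttr, 4 without the highest in striatal markers and 6 with the striatal covariate. Astrocyte genes in general held no called rise. In limma 2 of them were positive and 4 negative at an unadjusted p under 0.05. Of 24 tested, none was called higher and 3 were called lower, namely the growth factor receptor Fgfr3 (13.5 ± 2.01 against 18.8 ± 1.44 FPKM, log2 fold change -0.47, SE 0.10, adjusted p = 0.0245), the heparan sulfate proteoglycan Gpc5 (7.27 ± 0.465 against 9.33 ± 0.827 FPKM, log2 fold change -0.34, SE 0.07, adjusted p = 0.0274) and the milk fat globule protein Mfge8 (27.5 ± 3.91 against 38.1 ± 5.02 FPKM, log2 fold change -0.47, SE 0.11, adjusted p = 0.0448). The median of that list was 0.00, and the count of 3 was 0 in each of those settings and fell to 0 without AD_HighP 5, WT_HighP 2 or WT_HighP 3 and to 1 without AD_HighP 2 or WT_HighP 1.

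Of 17 genes of antigen presentation on MHC class I 5 were called higher and none lower (median 0.37). B2m, the invariant light chain, was at 158, 219, 174, 221 and 211 FPKM in AD_HighP and 93.7, 76.0, 86.8, 85.1 and 95.3 FPKM in WT_HighP (log2 fold change 1.16, SE 0.10, adjusted p = 0.000109). The heavy chains H2-D1 (37.5 ± 6.70 against 19.2 ± 2.38 FPKM, log2 fold change 0.94, SE 0.12, adjusted p = 0.00110) and H2-K1 (20.8 ± 3.85 against 11.3 ± 1.27 FPKM, log2 fold change 0.84, SE 0.12, adjusted p = 0.00303) and the immunoproteasome subunit Psmb8 (1.24 ± 0.332 against 0.460 ± 0.0834 FPKM, log2 fold change 0.84, SE 0.15, adjusted p = 0.0117) rose too. The count of 5 was 1 without the libraries high in Ttr, 1 without the highest in striatal markers and 3 with the striatal covariate. H2-K1 had an adjusted p of 0.0939 in the first of these, and Psmb8 0.080 with the covariate. Close similarity among H2 genes makes the levels of single heavy chains uncertain.

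Of 8 MHC class II genes tested 2 were called higher (median 1.10), or 1 without WT_HighP 3 and 1 in each of those same 3 settings. Cd74, the invariant chain that escorts class II molecules, was at 12.7, 20.6, 12.9, 47.3 and 9.92 FPKM in AD_HighP and 2.53, 5.32, 1.97, 1.96 and 7.05 FPKM in WT_HighP (log2 fold change 2.23, SE 0.43, adjusted p = 0.0174). All 5xFAD libraries exceeded the wild-type ones, but AD_HighP 4 held more than 2-fold the next value, and without WT_HighP 3 the adjusted p was 0.0501. The class II chain H2-Aa was at 1.83, 3.76, 2.29, 10.4 and 2.04 FPKM in AD_HighP and 0.694, 1.38, 0.452, 0.282 and 2.03 in WT_HighP (log2 fold change 1.5, SE 0.44, adjusted p = 0.0913), with overlap and no call. H2-Ab1 was likewise not called (log2 fold change 1.5, SE 0.41, adjusted p = 0.0727). The co-stimulatory ligand Cd86 was called (1.45 ± 0.271 against 0.456 ± 0.0936 FPKM, log2 fold change 1.02, SE 0.12, adjusted p = 0.000756). AD_HighP 4 also had the highest sum of meningeal and fibroblast markers (769 summed FPKM, against 289 to 407 in the other AD_HighP libraries and 252 to 437 in WT_HighP). The same library had the highest sum of border macrophage markers (9.18 summed FPKM, against 4.12 to 6.70 in the other 9), of which Mrc1 and Cd163 stayed at or under 1.49 FPKM in all 10. The part of either tissue in the class II values was not tested.

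All 35 tested genes of the interferon response had a positive difference, and 25 were called higher and none lower (median 0.77). Ifit3 (ENSMUSG00000074896, chromosome 19 from 34583531 to 34588731), an interferon-stimulated gene of the Ifit family, was at 10.5, 11.1, 10.5, 16.0 and 12 FPKM in AD_HighP and 4.15, 3.26, 4.23, 3.57 and 2.73 FPKM in WT_HighP (log2 fold change 1.61, SE 0.13, adjusted p = 5.8e-05). Ifit1, which recognises RNA lacking cap methylation, was at 2.27, 3.16, 3.30, 4.56 and 3.52 FPKM in AD_HighP and 0.767, 0.552, 0.888, 0.730 and 1.21 FPKM in WT_HighP (log2 fold change 1.53, SE 0.17, adjusted p = 0.000359). In both genes AD_HighP 4 was the highest library, and no wild-type value reached the 5xFAD range. The oligoadenylate synthetase-like gene Oasl2 (1.90 ± 0.416 against 0.443 ± 0.0876 FPKM, log2 fold change 1.34, SE 0.13, adjusted p = 0.000169) and Ifit3b (4.46 ± 0.578 against 1.66 ± 0.289 FPKM, log2 fold change 1.20, SE 0.11, adjusted p = 0.000109) rose as well. Ifit3 and Ifit3b are close copies, and reads may be split between them. Isg15 (ENSMUSG00000035692, chromosome 4 from 156199424 to 156200818), a ubiquitin-like modifier, was at 1.65, 2.00, 2.92, 2.99 and 2.61 FPKM in AD_HighP and 0.524, 0.388, 1.04, 0.622 and 0.945 FPKM in WT_HighP (log2 fold change 1.29, SE 0.18, adjusted p = 0.00259). Leaving out single libraries gave 20 to 22 called members. The count was 11 without the 4 libraries high in Ttr, 5 without the 4 highest in striatal markers and 18 with the striatal score as a covariate, with medians of 0.71, 0.81 and 0.72. These settings were added after the data were seen, and the first pair leaves 6 libraries in the test.

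The promoters of these genes were searched for the interferon element, written here as GAAANNGAAA, where N is any base. RefSeq promoter sequences of mouse build GRCm38.p6, 250 bases before to 50 bases after the start, were matched by symbol for 27 of the 35 tested interferon genes. On either strand, 19 of the 27 held the element, among them 15 of the 19 that were called. Over all 27025 symbols with a promoter the share was 3.99%, and over the tested genes 3.44%. Of 244 promoters of genes called higher in AD_HighP 27 held it (11.1%), and of 136 of genes called lower 6 did (4.41%). The 27 include the 15 called interferon genes just counted, so the 2 shares are not separate observations. The 250 bases before the start are shown for the 4 called interferon genes with the largest fold changes among those matched, 5′ to 3′ on the strand of the gene, with the element, or its complement where the match is on the other strand, in capitals.
Ifit3 (log2 fold change 1.61, chr19:34583279-34583528, plus strand): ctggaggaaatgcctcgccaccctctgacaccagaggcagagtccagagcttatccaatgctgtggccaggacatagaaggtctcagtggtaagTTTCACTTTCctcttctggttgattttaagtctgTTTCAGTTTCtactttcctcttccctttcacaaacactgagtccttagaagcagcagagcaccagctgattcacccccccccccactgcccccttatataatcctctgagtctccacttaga
Ifit1 (log2 fold change 1.53, chr19:34640639-34640888, plus strand): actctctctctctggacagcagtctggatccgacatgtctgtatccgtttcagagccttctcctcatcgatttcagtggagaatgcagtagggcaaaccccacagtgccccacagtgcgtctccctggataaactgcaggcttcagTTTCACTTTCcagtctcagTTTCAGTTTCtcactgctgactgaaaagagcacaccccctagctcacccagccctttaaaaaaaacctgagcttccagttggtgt
Oasl2 (log2 fold change 1.34, chr5:114896684-114896933, plus strand): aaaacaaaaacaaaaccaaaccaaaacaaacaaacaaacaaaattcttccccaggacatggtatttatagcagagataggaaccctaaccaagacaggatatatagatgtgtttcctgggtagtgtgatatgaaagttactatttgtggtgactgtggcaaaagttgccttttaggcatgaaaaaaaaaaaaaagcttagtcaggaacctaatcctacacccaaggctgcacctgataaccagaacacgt
Isg15 (log2 fold change 1.29, chr4:156200819-156201068, minus strand): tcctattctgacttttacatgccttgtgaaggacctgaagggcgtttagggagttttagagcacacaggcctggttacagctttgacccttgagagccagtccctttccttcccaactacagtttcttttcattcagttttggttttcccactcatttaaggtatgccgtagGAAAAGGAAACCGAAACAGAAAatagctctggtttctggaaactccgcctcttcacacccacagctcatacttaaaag
Both Ifit promoters carry the element more than once within 156 bases of the start, in Ifit3 beginning 156 and 122 bases before it and in Ifit1 104 and 85 bases before it. The Isg15 promoter holds overlapping copies that begin 78, 72 and 66 bases before the start. These letters do not occur in the window of Oasl2, which rose by 1.34. A match is a description of the sequence and not evidence of a factor bound there.

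The same search was made with elements known for the other programmes. The PU.1 element GAGGAAGT, bound by a factor that defines myeloid cells, was in 1 of 17 matched promoters of called plaque-associated genes (5.88%) and in 22 of the 244 promoters of all genes called higher (9.02%), against 3.31% of tested genes. The lysosomal element TCACGTGA was in 2 of 15 called lysosomal genes and in 4 of 13 that were not called, against 2.13% of tested genes. The sterol element TCACNCCAC was in 1 of 3 matched called cholesterol genes, namely Hmgcs1, against 1.40% of tested genes. No element searched contains another, though matches may overlap in part, and every search covered both strands.

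Lysosomal genes rose in number more than in size. Of 36 tested 19 were called higher and none lower, with a median of 0.32. Without the libraries high in Ttr 10 were called, without the highest in striatal markers 9, and with the striatal covariate 13. Ctsd, the aspartic protease cathepsin D, was at 189.6, 255, 205, 248 and 186 FPKM in AD_HighP and 94.2, 93.4, 88.9, 84.7 and 78.1 FPKM in WT_HighP (log2 fold change 1.29, SE 0.10, adjusted p = 3.25e-05). Ctss, the cysteine protease that trims the invariant chain, was at 69.1, 109, 81.7, 94.9 and 90.9 FPKM in AD_HighP and 33.0, 31.2, 33.7, 25.4 and 28.6 FPKM in WT_HighP (log2 fold change 1.53, SE 0.12, adjusted p = 3.25e-05). Both separated the genotypes in all mice. The metal ion transporter Slc11a1 (3.79 ± 0.748 against 0.946 ± 0.223 FPKM, log2 fold change 1.57, SE 0.14, adjusted p = 8.66e-05) and the membrane protein Laptm5 (28.8 ± 5.02 against 10.5 ± 1.57 FPKM, log2 fold change 1.40, SE 0.13, adjusted p = 0.000109), made mainly by phagocytes, were next. Of 24 autophagy genes limma called 0 (median -0.05), with 3 at an unadjusted p under 0.05, and voom on the recovered reads called 0.

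Lipid genes moved by less. Of 25 lipoprotein and lipid transport genes 4 were called higher and none lower (median 0.00). Ch25h, which makes 25-hydroxycholesterol, was at 1.20, 1.99, 1.15, 1.76 and 1.07 FPKM in AD_HighP and 0.0419, 0.608, 0.224, 0.131 and 0.264 FPKM in WT_HighP (log2 fold change 1.38, SE 0.21, adjusted p = 0.00336). The lysosomal cholesterol carrier Npc2 (12.9 ± 0.865 against 8.64 ± 1.23 FPKM, log2 fold change 0.56, SE 0.09, adjusted p = 0.00680) and the fatty acid binding protein Fabp5 (12.5 ± 1.03 against 9.77 ± 0.396 FPKM, log2 fold change 0.34, SE 0.06, adjusted p = 0.0140) rose modestly, and Lpl is given above. Of 26 cholesterol synthesis genes 5 were called higher and none lower (median 0.19, 22 of 26 positive). Nsdhl, a sterol dehydrogenase (9.06 ± 0.774 against 6.19 ± 0.453 FPKM, log2 fold change 0.51, SE 0.07, adjusted p = 0.00259), Hmgcs1, which feeds the pathway (60.3 ± 6.28 against 46.0 ± 3.01 FPKM, log2 fold change 0.38, SE 0.08, adjusted p = 0.0188), Fdft1, squalene synthase (27.3 ± 1.51 against 21.8 ± 1.73 FPKM, log2 fold change 0.32, SE 0.07, adjusted p = 0.0219), and Lss, lanosterol synthase (4.15 ± 0.200 against 3.29 ± 0.0975 FPKM, log2 fold change 0.29, SE 0.06, adjusted p = 0.0225), had the smallest p. That count fell to 1 without WT_HighP 1, 2 without AD_HighP 3 and 3 without WT_HighP 3, and was 1, 0 and 1 in the settings for Ttr, striatal libraries and striatal covariate. Of 30 antioxidant genes the heme oxygenase Hmox1 (3.87 ± 0.398 against 2.15 ± 0.345 FPKM, log2 fold change 0.73, SE 0.10, adjusted p = 0.00223) and the peroxiredoxin Prdx6 (47.4 ± 5.18 against 37.3 ± 2.46 FPKM, log2 fold change 0.34, SE 0.08, adjusted p = 0.0395) were called, and of 14 iron genes Slc11a1 and the transferrin receptor Tfrc (24.0 ± 3.51 against 16.0 ± 3.29 FPKM, log2 fold change 0.58, SE 0.14, adjusted p = 0.0414). Prdx6 and Tfrc each lost the call in most fits that left out a library (adjusted p up to 0.104 and 0.105), and the antioxidant count was 4 without AD_HighP 1.

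Several lists showed few calls or none in limma. Of 24 oligodendrocyte and myelin genes 0 were called (median 0.05), with 1 at an unadjusted p under 0.05. It also called 0 of 24 genes of excitatory neurons (median 0.08, 4 at an unadjusted p under 0.05), 22 of the heat shock response (median -0.11, 4) and 13 encoded by mitochondria (median 0.02, 2). Voom on the recovered reads called 0 in these 4 lists too. Of 13 oligodendrocyte precursor genes (median -0.16) 0 were called, with 5 at an unadjusted p under 0.05, and of 39 synaptic genes (median 0.00) 0 were called, with 6. Voom called 1 gene lower in each of these last lists. With 1.22% to 2.22% of all genes called in a direction, a list of this size can hold few calls, and small differences in it were not detectable. The transporter Mfsd2a of the blood-brain barrier was the single called gene of 27 endothelial and mural genes (4.96 ± 0.398 against 7.31 ± 0.695 FPKM, log2 fold change -0.52, SE 0.08, adjusted p = 0.00370). Fibcd1, listed for hippocampus, fell (1.92 ± 0.205 against 2.88 ± 0.488 FPKM, log2 fold change -0.47, SE 0.11, adjusted p = 0.0361) but was not called in 8 of the 10 fits without a library. The clock gene Npas2 (10.4 ± 0.526 against 13.7 ± 1.26 FPKM, log2 fold change -0.38, SE 0.07, adjusted p = 0.0123) and the stress gene Ddit4 (14.3 ± 1.23 against 21.6 ± 1.69 FPKM, log2 fold change -0.58, SE 0.07, adjusted p = 0.00111) were each the only called member of their lists of 18. Npas2 was not called with the striatal covariate (adjusted p = 0.132), without the libraries high in Ttr (0.162) or without the highest in striatal markers (0.209). Ddit4 and Mfsd2a were called with the covariate (0.0173 and 0.0289). Neither was called without the libraries high in Ttr (0.0917 and 0.0517) or without the highest in striatal markers (0.138 and 0.146). In the unfolded protein response Atf3, a stress-induced factor (1.20 ± 0.352 against 0.339 ± 0.0986 FPKM, log2 fold change 1.00, SE 0.16, adjusted p = 0.00513), and Edem1, which directs misfolded glycoproteins to degradation (5.25 ± 0.432 against 4.13 ± 0.135 FPKM, log2 fold change 0.31, SE 0.07, adjusted p = 0.0283), were called of 25. Edem1 was not called in 7 of the 10 fits without a library.

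**Figure D4:**
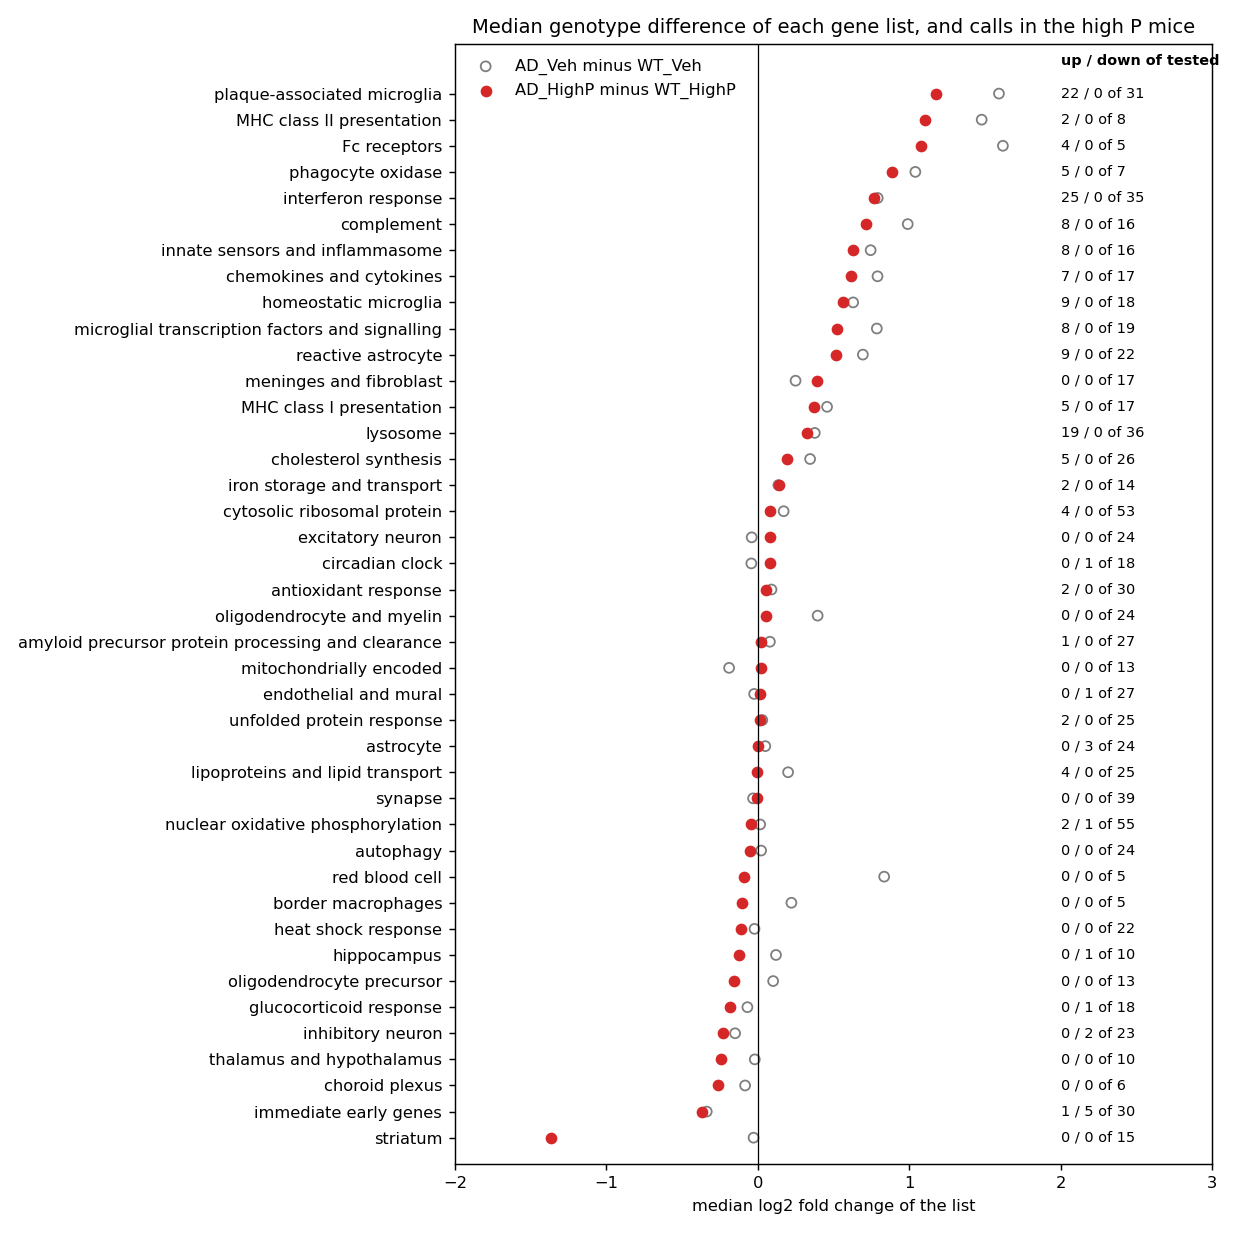
For each gene list with at least 5 genes tested, the filled point is the median log2 fold change of AD_HighP minus WT_HighP, the open point that of AD_Veh minus WT_Veh, and the text gives genes called higher and lower of those tested under high P. Microglial and immune lists lie to the right in both, and the striatal list lies at -1.37 under high P and -0.03 under vehicle with 0 genes called by limma.

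Falls were smaller, and few of these genes stood on a list. The 10 largest falls without overlap included the secreted synaptic pentraxin Nptx2 (ENSMUSG00000059991, chromosome 5 from 144545902 to 144557478), at 14.0, 14.7, 13.5, 9.59 and 13.1 FPKM in AD_HighP and 28.6, 25.2, 25.4, 22.6 and 18.9 FPKM in WT_HighP (log2 fold change -0.87, SE 0.13, adjusted p = 0.00297). The neuropeptide precursor Vgf (ENSMUSG00000037428, chromosome 5 from 137026392 to 137033351) was at 116, 101, 85.0, 88.9 and 82.5 FPKM in AD_HighP and 161, 150.2, 166, 184 and 151 FPKM in WT_HighP (log2 fold change -0.78, SE 0.10, adjusted p = 0.000937). Both genes are induced by neuronal activity, and in both every 5xFAD mouse lay below every wild-type mouse. The melanin-concentrating hormone receptor Mchr1 (5.86 ± 0.872 against 10.04 ± 2.03 FPKM, log2 fold change -0.72, SE 0.13, adjusted p = 0.0134), the rhomboid family gene Rhbdl3 (2.28 ± 0.537 against 4.76 ± 1.44 FPKM, log2 fold change -0.90, SE 0.18, adjusted p = 0.0195), the glycogen phosphatase subunit Ppp1r3g (2.54 ± 0.485 against 4.45 ± 0.760 FPKM, log2 fold change -0.71, SE 0.13, adjusted p = 0.0138) and the noncoding host transcript Snhg10 (0.673 ± 0.268 against 1.58 ± 0.265 FPKM, log2 fold change -0.85, SE 0.17, adjusted p = 0.0190) fell as well. So did the Notch regulator Nrarp (2.53 ± 0.357 against 5.30 ± 1.18 FPKM, log2 fold change -0.92, SE 0.14, adjusted p = 0.00411), the Notch target Hes5 (2.54 ± 0.880 against 5.22 ± 1.35 FPKM, log2 fold change -0.93, SE 0.21, adjusted p = 0.0333, with overlap) and the Wnt receptor Fzd2 (3.64 ± 0.618 against 6.54 ± 0.902 FPKM, log2 fold change -0.77, SE 0.11, adjusted p = 0.00316). Hes5 lost its call in 7 of 10 fits without a library (adjusted p up to 0.082), after GC correction (0.0741) and with the striatal covariate described below (0.214). Rhbdl3 lost it without AD_HighP 2, 4 or 5 or WT_HighP 1 (up to 0.0557) and Snhg10 without AD_HighP 2 (0.0503). Mchr1, Rhbdl3 and Ppp1r3g were not called with that covariate (0.0885, 0.171 and 0.0776).

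Immediate early genes, which neurons induce when they fire, were mostly lower. Of 30 tested 28 had a negative difference and the median was -0.37, with 5 called lower and 1, Atf3, called higher. With the striatal covariate 1 was called lower, and 0 without the 4 libraries high in Ttr or the 4 highest in striatal markers. Jun, a subunit of the AP-1 factor, was at 12.3, 12.6, 11.3, 14.0 and 10.6 FPKM in AD_HighP and 17.3, 26.4, 20.7, 16.5 and 23.8 FPKM in WT_HighP (log2 fold change -0.74, SE 0.13, adjusted p = 0.00810). Fosb, its partner, was at 2.69, 3.24, 2.63, 2.06 and 2.24 FPKM in AD_HighP and 5.24, 3.79, 4.51, 5.20 and 3.57 FPKM in WT_HighP (log2 fold change -0.69, SE 0.13, adjusted p = 0.0140). Egr4 was called with overlapping groups (23.5 ± 5.82 against 45.3 ± 11.6 FPKM, log2 fold change -0.93, SE 0.21, adjusted p = 0.0362). Neither of the best known members was called. Fos was at 6.54, 10.1, 17.1, 39.5 and 19.0 FPKM in WT_HighP and 6.14, 18.6, 16.1, 12.1 and 10.5 FPKM in AD_HighP (adjusted p = 0.678), and Arc at 31.0, 37.0, 86.3, 202 and 75.0 FPKM in WT_HighP and 25.6, 72.1, 84.2, 42.4 and 33.3 FPKM in AD_HighP (adjusted p = 0.568). WT_HighP 4 was the highest library for both.

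Among 23 inhibitory neuron genes 20 had a negative difference (median -0.23), with 2 called lower. Sst (ENSMUSG00000004366, chromosome 16 from 23889573 to 23890958), the somatostatin precursor that marks a class of cortical interneurons, was at 181, 166, 175, 156 and 144 FPKM in AD_HighP and 262, 299, 257, 240.2 and 232 FPKM in WT_HighP (log2 fold change -0.65, SE 0.08, adjusted p = 0.00126). No values overlapped, and the call held without any single library (adjusted p from 0.00183 to 0.00546). Slc32a1, the vesicular transporter of GABA, was at 34.1, 40.1, 46.1, 29.1 and 31.8 FPKM in AD_HighP and 80.8, 72.0, 72.7, 49.2 and 43.3 FPKM in WT_HighP (log2 fold change -0.78, SE 0.18, adjusted p = 0.0397), with overlap, and lost its call in 7 of 10 fits without a library (adjusted p up to 0.105). With the striatal covariate its log2 fold change was -0.38 (adjusted p = 0.18). Gad1 (44.4 ± 3.43 against 57.5 ± 10.4 FPKM, log2 fold change -0.36, SE 0.11, adjusted p = 0.110) and Gad2 (32 ± 5.81 against 45.6 ± 10.6 FPKM, log2 fold change -0.49, SE 0.17, adjusted p = 0.144), the GABA-making enzymes, were not called, nor was the interneuron marker Pvalb (37.2 ± 6.09 against 38.3 ± 18.3 FPKM, log2 fold change 0.08, adjusted p = 0.901). The summed FPKM of the list was 678, 711, 773, 618 and 657 in AD_HighP and 1124, 1068, 1036, 883 and 812 in WT_HighP (exact permutation p = 0.00794, adjusted 0.0476). Striatal neurons also use many of these genes, among them Penk (log2 fold change -2.0, SE 0.71, adjusted p = 0.152). The sum of thalamic and hypothalamic markers was lower in AD_HighP too (25.7 ± 1.97 against 34.6 ± 7.26 summed FPKM, exact p = 0.00794, adjusted 0.0476).

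The count of genes called lower moved with single libraries by more than the count called higher. All 15 tested striatal markers were lower in AD_HighP (median -1.37), and limma and voom called 0 of them, with 13 at an unadjusted p under 0.05, the dopamine receptor Drd1 being at 31.0, 20.6, 19.5, 5.23 and 7.82 FPKM in WT_HighP and 3.12, 5.27, 17.2, 2.03 and 8.06 FPKM in AD_HighP. With a striatal marker score as a covariate 29 genes were called lower, 22 of them among the 183, and 179 higher, 173 of them among the 333. Without the 4 libraries with the highest striatal sums 0 genes were called lower in limma (595 at an unadjusted p under 0.05) and 95 higher, with 6 libraries left. Those dropped were WT_HighP 1, 2 and 3 and AD_HighP 3, so the wild-type side held only replicates 4 and 5, both female. Striatal content, sex balance and group size thus changed together in this setting. With the covariate the log2 fold change was -0.88 for Vgf (adjusted p = 0.00328), -0.57 for Sst (0.0205), -0.67 for Nptx2 (0.0306) and -0.77 for Jun (0.0506). Jun thus missed the threshold without a smaller fold. The 183 also fell to 62 without WT_HighP 1, 81 without WT_HighP 2, 67 without WT_HighP 3, 85 without AD_HighP 2, 73 without AD_HighP 4 and 80 without AD_HighP 5, and reached 282 without AD_HighP 1. Genes called lower had a median GC content of 56.4%, against 49.8% for all tested and 49.0% for those called higher, and fold change and GC correlated across genes with a Spearman coefficient of -0.371, a description in which genes are not independent. After a correction for GC within each library, 119 genes were called lower, 93 of them among the 183, and 373 higher, 308 of them among the 333, so that higher genes made up 75.8% of calls in place of 64.5%. The part of striatal RNA and of GC in these falls was not tested.

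Of the called genes in none of the lists, 5 with the largest rises are given here. Mpeg1, a pore-forming protein of macrophages, was at 19.1, 28.7, 25.7, 30.6 and 27.2 FPKM in AD_HighP and 6.98, 8.21, 8.14, 5.80 and 6.93 FPKM in WT_HighP (log2 fold change 1.79, SE 0.13, adjusted p = 1.98e-05). The urokinase Plau (4.87 ± 0.848 against 1.24 ± 0.280 FPKM, log2 fold change 1.62, SE 0.14, adjusted p = 8.04e-05), the poly(A) polymerase Tent5c (3.10 ± 0.609 against 0.733 ± 0.230 FPKM, log2 fold change 1.55, SE 0.15, adjusted p = 0.000181) and the protein kinase C substrate Plek (10.7 ± 1.90 against 3.35 ± 0.376 FPKM, log2 fold change 1.54, SE 0.12, adjusted p = 3.25e-05) rose too. Rps27rt, a retrotransposed copy of the ribosomal gene Rps27, was at 10.5, 12.9, 17.9, 22.5 and 12.1 FPKM in AD_HighP and 8.47, 4.23, 3.07, 4.09 and 3.66 FPKM in WT_HighP (log2 fold change 1.62, SE 0.26, adjusted p = 0.00487). Rps27 itself rose (28.5 ± 7.34 against 13.3 ± 2.96 FPKM, log2 fold change 1.07, SE 0.19, adjusted p = 0.00917), and the reads of such copies cannot be assigned with certainty. With Rps21 (log2 fold change 0.58, SE 0.13, adjusted p = 0.0360), Rpl34 (log2 fold change 0.45, SE 0.10, adjusted p = 0.0368) and Rps25 (log2 fold change 0.41, SE 0.09, adjusted p = 0.0395) it made 4 called of 53 ribosomal protein genes (median 0.08), a count that was 1 without AD_HighP 2, 3 or 4 or WT_HighP 3, 4 or 5 and 2 without AD_HighP 5. In oxidative phosphorylation Uqcrb (log2 fold change 0.41, SE 0.09, adjusted p = 0.0285) and Cox6c (log2 fold change 0.39, SE 0.09, adjusted p = 0.0414) rose and Atp5d fell (log2 fold change -0.29, SE 0.07, adjusted p = 0.0444) of 55 tested, and each lost its call in at least 5 of the 10 fits without a library. The largest falls outside the lists were Unc13c, a priming factor of synaptic vesicles (3.58 ± 1.28 against 10.2 ± 4.89 FPKM, log2 fold change -1.31, SE 0.31, adjusted p = 0.0453), and the adrenergic receptor Adra2c (10.7 ± 2.26 against 20.03 ± 6.09 FPKM, log2 fold change -0.85, SE 0.20, adjusted p = 0.0396), beside Hes5, Nrarp and Rhbdl3 above. Unc13c and Adra2c overlapped between groups and each lost its call in 7 of 10 such fits. With the striatal covariate their log2 fold changes were -0.63 (adjusted p = 0.218) and -0.44 (adjusted p = 0.226).

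The vehicle libraries gave a separate measurement of the genotype difference. In their own test of 14968 genes, 314 were called higher in AD_Veh (2.1%) and 21 lower (0.14%). The median SE of that test was 0.14, against 0.10 under high P, so a difference of like size was called less readily. Of 14581 genes tested in both, 196 were called higher in both, which is 59.6% of the 329 high P calls and 64.7% of the 303 vehicle calls. The sign was shared more widely: 310 of the 329 were also positive under vehicle, where 45.8% of all genes were, and 298 of the 303 were positive under high P. No gene was called in opposite directions. Falls shared fewer calls. Of 182 genes called lower under high P and 20 under vehicle 1 was common, Zfp365 (-0.30 and -0.41), and 118 of the 182 were negative under vehicle. Their median was -0.42 under high P and -0.04 under vehicle. Vgf (-0.13), Jun (0.13), Nptx2 (-0.29) and Sst (-0.39) had vehicle log2 differences that were not called, with Jun of the opposite sign. The vehicle difference correlated with GC across genes in the other direction (Spearman coefficient 0.366), and its 15 striatal markers had a median of -0.03. Immediate early genes had like medians in both, -0.37 under high P and -0.34 under vehicle.

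**Figure D5:**
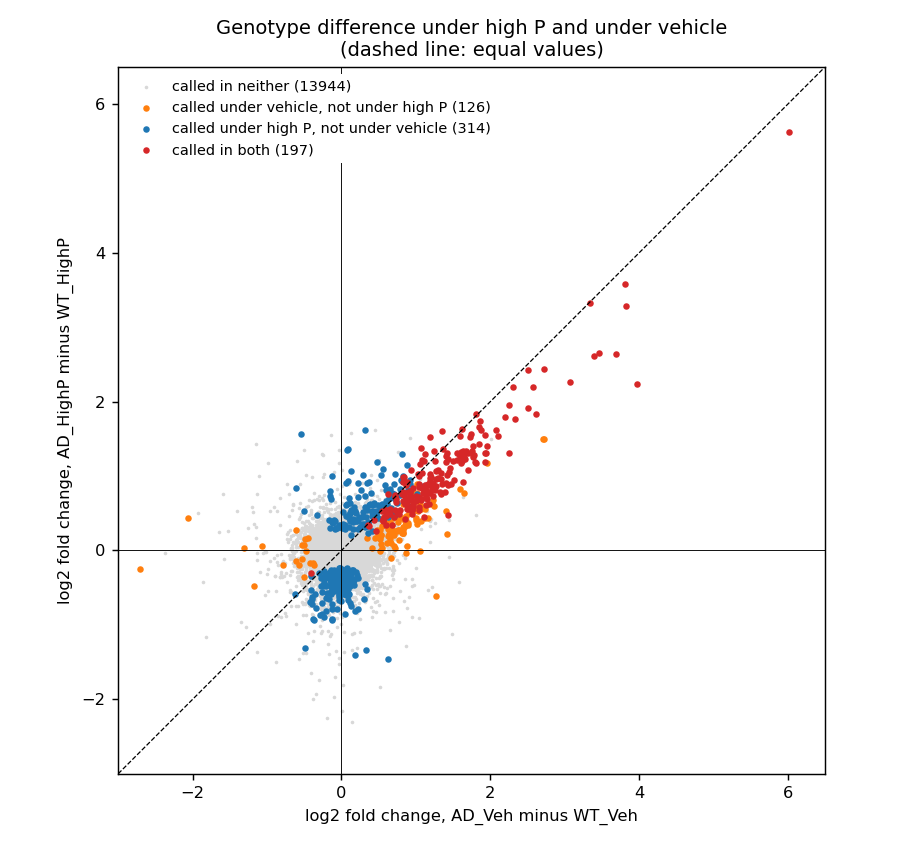
Each point is one of the 14581 genes tested in both comparisons, with its log2 fold change under vehicle (AD_Veh minus WT_Veh) against that under high P (AD_HighP minus WT_HighP), and the dashed line marks equal values. Of the 197 genes called in both (red) 196 lie in the upper right, while most genes called lower under high P (blue, below 0) lie near 0 on the vehicle axis.

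Set side by side, list members often had the smaller value under high P, where 50.8% of all genes did. In the plaque-associated list 27 of 31 were smaller (medians 1.18 and 1.59), in the Fc receptor list 4 of 5 (1.08 and 1.62) and in the reactive astrocyte list 18 of 22 (0.51 and 0.69). The pattern was not particular to these lists. Of oligodendrocyte and myelin genes 23 of 24 were smaller (0.05 and 0.40) and of striatal markers 15 of 15 (-1.37 and -0.03). Excitatory neuron genes went the other way, with 8 of 24 smaller. Among the 196 genes called higher in both, 177 were smaller under high P. A call under vehicle, where the median SE was larger, needed a larger difference. That count thus follows in part from how the 196 were selected, unlike the share over all genes. Interferon genes were about equal, with 16 of 34 smaller and medians of 0.76 and 0.79. Of them 25 were called under high P against 15 under vehicle, where the median SE over all genes was larger (0.14 against 0.10). The genotype differences under high P and vehicle were compared by the interaction of genotype and high P over 20 libraries. It called 0 of 16085 genes (0%) in limma, with 1675 at an unadjusted p under 0.05. Its median SE was 0.19, against 0.10 for the high P comparison, and a p above the threshold does not show that the differences were equal. Gfap, for example, differed by 2.63 under high P and 3.69 under vehicle, an interaction of -1.05 (SE 0.28, adjusted p = 0.331).

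The smallest interaction p values belonged to 5 genes, none called. Rpl22l1, a paralogue of a ribosomal protein, was at 10.5 against 7.36 FPKM under high P and 10.4 against 13.2 FPKM under vehicle, 5xFAD first (interaction 0.81, SE 0.14, adjusted p = 0.0939). Cebpa was at 11.4 against 7.99 FPKM under high P and 13.1 against 4.52 FPKM under vehicle (interaction -0.95, SE 0.17, adjusted p = 0.0939). For Cebpa the wild-type means differed more between treatments than the 5xFAD means did. Irs2, an adaptor of the insulin receptor, was at 13.6, 13.5, 11.9, 13.4 and 11.6 FPKM in AD_HighP and 19.3, 18.8, 17.3, 18 and 15.8 FPKM in WT_HighP, a fall (log2 fold change -0.47, SE 0.07, adjusted p = 0.00411) beside 0.17 under vehicle (interaction -0.64, SE 0.12, adjusted p = 0.0989). The zinc finger gene Zxdb (interaction 0.62, SE 0.12, adjusted p = 0.126) and the GTPase regulator Arhgap45 (interaction -0.73, SE 0.15, adjusted p = 0.201) were the others. Single fits without WT_Veh 1, AD_Veh 5 or AD_HighP 1 called 1, 2 and 1 genes, among them Cebpa without AD_Veh 5 (adjusted p = 0.0044) and Rpl22l1 without AD_HighP 1 (adjusted p = 0.0485).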

How the data were processed

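Poly(A) RNA of mouse cortex was sequenced from strand-specific libraries, per the labels' protocols, and aligned to mm10 with HISAT2, per the submitters' processing notes. The sources used here name no counter or annotation. The authors deposited FPKM values for 54532 genes in 25 libraries. FPKM steps gave whole reads for 100% of nonzero values (tolerance 0.01 read), 15518358 to 17698222 per library.

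From these, log2(FPKM + 0.5) of the 14995 genes kept (minimum 0.5 FPKM, in 5 or more of 10 libraries) was fitted with limma 3.58.1 in R 4.3.3, with a variance trend and no covariate. The fit was tested on simulated data. The vehicle comparison used its own 10 libraries and the interaction 20. Library measures were compared by exact permutation. Replicates are separate mice per the series text, and libraries of a group differed by more than counting noise. GC content came from GENCODE M21 transcripts.

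The genes, the 42 lists (959 symbols, 37 of them on more than 1 list) and the promoter motifs were chosen with earlier results of these data known. Named genes were Thy1 and App, then the 10 largest rises and 10 largest falls at a mean of at least 1 FPKM without overlap, leaving out unnamed models and pseudogenes (Clec7a, annotated as a polymorphic pseudogene, was kept). The 4 called members with the smallest p per list, the 5 smallest interaction p and the 5 largest changes each way outside the lists were added. Trem2, Apoe, Tmem119, H2-Aa, H2-Ab1, Gad1, Gad2, Pvalb, Penk, Fos, Arc, Drd1 and the tissue markers were chosen after their values were seen. Some genes that met the rule are not reported here. Alternatives covered the pseudocount, filter, variance model, scaling, recovered reads, GC, sex, replicate number and single libraries.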

Additional observations from a re-analysis of the deposited data

Results flagged for a closer look

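In groups of 5 libraries, a value was listed when its gap to the nearest neighbour exceeded 0.71 of the group's range, Dixon's 95% limit. Chance gives about 1 in 20 groups, and 12 of 248 groups examined met it, so the number itself is near what chance gives. Among the genes named, C4b was far above the others in AD_HighP 2 (80.8 FPKM, gap ratio 0.751), as was the fractalkine receptor Cx3cr1 in the same library (27.6 FPKM, 0.723). Nptx2 was lowest in AD_HighP 4 (9.59 FPKM, 0.734), the ATP synthase subunit Atp5d lowest in WT_HighP 1 (79.3 FPKM, 0.763) and Fabp5 lowest in WT_HighP 5 (9.08 FPKM, 0.757). Among sums over cell type markers, oligodendrocyte and myelin genes were lowest in WT_HighP 5 (824 summed FPKM, 0.811) and highest in AD_HighP 2 (1779 summed FPKM, 0.711), where oligodendrocyte precursor genes were highest too (244 summed FPKM, 0.767). The meningeal sum was highest in AD_HighP 4 (769 summed FPKM, 0.755) and the striatal sum of the 5xFAD libraries in AD_HighP 3 (592 summed FPKM, 0.739). Thalamic and hypothalamic markers were highest in WT_HighP 2 (46.98 summed FPKM, 0.74) and lowest in AD_HighP 3 (22.25 summed FPKM, 0.76).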

How the results depend on the processing

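The count of genes called higher (333) kept within 1.5 times under each pseudocount, filter, variance model, scaling, GC and sex setting tried on all 10 libraries, and was 225 to 367 when single libraries were left out, of which 223 to 301 were among the 333. It was 98 in males alone, 29 in females alone, 143 without the 4 libraries high in Ttr, 95 without the 4 highest in striatal markers and 179 with the striatal score as a covariate. The last 3 settings were chosen after seeing the data. The count called lower (183) was 62 to 282 without single libraries, 68 with no filter, 41 with all 25 libraries in the fit, 303 with array weights, 112 after quantile normalization, 119 after GC correction, 397 with sex as a covariate, 43 in males, 2 in females, and 16, 0 and 29 in the 3 added settings. The cause of these moves was not tested, and the settings with fewer libraries changed both the number of mice and which mice were compared.

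Same-numbered mice of the groups shared their sex, and the labels name no other pairing. Deviations of same-numbered libraries from their group means correlated at -0.007, -0.097, 0.154, 0.032 and 0.184, and only numbers 3 and 5 correlated best with their own number. The median SE was 0.0969 with the replicate number as a block and 0.1045 without. These values do not settle whether the mice were paired. With the replicate block 281 genes were called higher and 196 lower, of which 253 and 115 were among the main calls, and with the replicate block and GC correction 249 and 59. The interaction called 2 genes with the block and 0 to 2 without single libraries. Over 106 named genes and 29 settings, 2541 of 3068 gene-by-setting verdicts were unchanged, 518 lost a call, 9 gained one and 0 reversed. Of 78 named rises 63 held in every fit without a library, as did 13 of 24 named falls. With the striatal covariate 62 and 9 were called, and 19 and 0 in every setting. With 5 mice a group, low genes carry few reads and small differences were not detectable.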

Other observations

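Sex was examined within the high P mice as an addition after the data were seen, with 3 males and 2 females in each genotype. Of 31 plaque-associated microglial genes, 29 had a larger genotype difference in females than in males, where 49.7% of all tested genes had a larger value in females. For single genes the test of genotype by sex in limma called 1 of 14995, Gm25970, and 1097 were at an unadjusted p under 0.05, with a median SE of 0.196. The 31 genes were measured in the same mice and are not separate observations of sex. AD_HighP 1, a male, had the lowest Cst7, Clec7a and Itgax of the 5xFAD mice, and its part in the sex difference was not tested. Striatal sums were 1150.4, 852 and 807 in the wild-type males and 209 and 280.3 in the wild-type females. In AD_HighP they were 146, 225 and 592 in males and 118 and 241 in females. The part of striatal content in the sex difference was not tested either.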
